A study of Homo sapiens with 16 samples.

Results

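Binding of the clock activator BMAL1 was examined at 10 genes of the Krüppel-like factor (KLF) family: KLF2, KLF4, KLF5, KLF6, KLF9, KLF10, KLF11, KLF13, KLF15 and KLF16. Peaks were assigned to a gene when they shared at least 1 bp with the gene body or with the 5 kb on either side of it (hg38). These 10 of 20033 protein-coding genes drew 80 of the 58586 peaks in 13 deposited peak lists, and the 80 peaks fell into 16 separate sites. The lists came from chromatin immunoprecipitation and sequencing in U2OS-CHRONO, a U2OS line labelled for the clock repressor CHRONO, and in U2OS labelled wild type, a human osteosarcoma line. One U2OS-CHRONO library was precipitated with an antibody to Myc, its target named in the series design as Myc-CHRONO, and its label gave neither a time nor a treatment. The others were precipitated with an antibody to BMAL1, 6 from U2OS-CHRONO and 6 from U2OS, after 200 nM dexamethasone, at the time labels 0, 4, 8, 12, 16 and 20 h. Time 0 is set, per the labels, 4 h ahead of the low point of a luciferase reporter on the BMAL1 promoter. The labels do not say how U2OS-CHRONO was made, whether it is a clone, or how much CHRONO it holds, and each combination of line and time was 1 library. The 3 input libraries were not analysed here.

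KLF proteins bind GC-rich DNA through a set of C-terminal zinc fingers, and several of them are rhythmic outputs of the circadian clock. BMAL1 pairs with CLOCK and binds E-boxes, whose canonical letters are CACGTG. CHRONO, the product of CIART, represses that pair. KLF9, KLF10, KLF11, KLF13 and KLF16 are mostly known as repressors that recruit the SIN3A corepressor, and KLF2, KLF4, KLF5 and KLF6 mostly as activators. KLF9 is also induced by glucocorticoids such as dexamethasone, and KLF15 controls amino acid and glucose metabolism with a daily rhythm in the mouse.

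The regulatory letters next to the start sites give a first view of these genes. RefSeq promoter windows (GRCh38.p14, 250 bases before to 50 after a start site) were found for 9 of the 10 genes, in 11 windows. CACGTG, which reads the same on both strands, occurred in 4 of the 11, at KLF4, KLF6, KLF11 and KLF15, and in 8.34% of the 22198 windows of protein-coding genes. The E-box-like CACGTT, searched on both strands, occurred in 1 of the 11, at KLF4, against 5.43%. The 250 bases upstream of KLF15, KLF6 and KLF4 are shown since each holds a CACGTG, in capitals, while the peaks over it differ. One U2OS-CHRONO peak lay over the letters of KLF15, 1 U2OS peak over those of KLF6, and none over those of KLF4. They lie at chr3:126357409-126357658, chr10:3785210-3785459 and chr9:107489770-107490019, all on the minus strand. The KLF11 letters, shown with 12 bases on either side, lie at chr2:10043647-10043652 on the plus strand, and the widest of the KLF11 peaks, at 4 h in U2OS-CHRONO, was the only one to reach them.
KLF15: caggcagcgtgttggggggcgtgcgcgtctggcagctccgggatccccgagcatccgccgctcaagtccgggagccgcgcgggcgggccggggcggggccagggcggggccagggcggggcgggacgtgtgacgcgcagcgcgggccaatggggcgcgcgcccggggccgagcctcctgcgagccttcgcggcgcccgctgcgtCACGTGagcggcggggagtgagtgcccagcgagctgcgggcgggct
KLF6: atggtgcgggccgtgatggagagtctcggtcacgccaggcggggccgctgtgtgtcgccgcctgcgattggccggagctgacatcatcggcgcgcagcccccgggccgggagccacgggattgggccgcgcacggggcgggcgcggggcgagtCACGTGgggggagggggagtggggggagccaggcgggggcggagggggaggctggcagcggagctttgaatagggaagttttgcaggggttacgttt
KLF4: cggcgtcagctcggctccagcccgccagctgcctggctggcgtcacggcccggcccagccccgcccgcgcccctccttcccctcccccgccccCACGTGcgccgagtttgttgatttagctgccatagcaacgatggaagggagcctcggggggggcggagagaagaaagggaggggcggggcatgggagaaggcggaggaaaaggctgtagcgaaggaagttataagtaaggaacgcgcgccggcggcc
KLF11: ccgcccgcagccCACGTGcggccgctgctg

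The windows of KLF2, KLF5, KLF9, KLF13 and KLF16 held neither motif. The only KLF16 window lay inside the gene, its 250 upstream bases at chr19:1863580-1863829. The higher-coordinate end of KLF16 was therefore not searched. Such a search covers these letters in these windows alone and says nothing of sites farther inside or outside a gene. The main KLF9 sites, described below, lay outside its promoter window.

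Peaks carry the authors' score in column 5, and rank 1 is the highest score of a list. The lists differed in length, and read depth was unknown, so a rank is given with the length of its list and ranks in unequal lists show no change by themselves. The U2OS-CHRONO BMAL1 lists held 2429 to 9391 peaks and the U2OS lists 337 to 6012, and the U2OS list of 8 h, with 337, was the shortest of all. Since the lists mark very different numbers of genes, counts of KLF genes are given with the share of all protein-coding genes with a peak in the same kind of window.

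BMAL1 peaks recurred at KLF9, KLF10 and KLF11, were found less regularly at KLF16, and were sparse at the rest. KLF11 had a peak in 12 of the 12 BMAL1 libraries, KLF10 in 10, KLF9 in 9 and KLF16 in 7. KLF15 had one in 2, KLF2, KLF5 and KLF6 in 1 each, and KLF4 and KLF13 in none. Thus 8 of the 10 genes had a peak in some BMAL1 library, where 41.5% of all protein-coding genes did. A peak in 9 or more libraries marked 3 of the 10 genes, against 5.66% of all genes, and a peak in all 12 marked 1, against 0.804%. The cutoff of 9 equals the count of KLF9, and the genes were chosen with earlier results of these data known. These shares are therefore a description and were not tested.

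**Figure D1:**
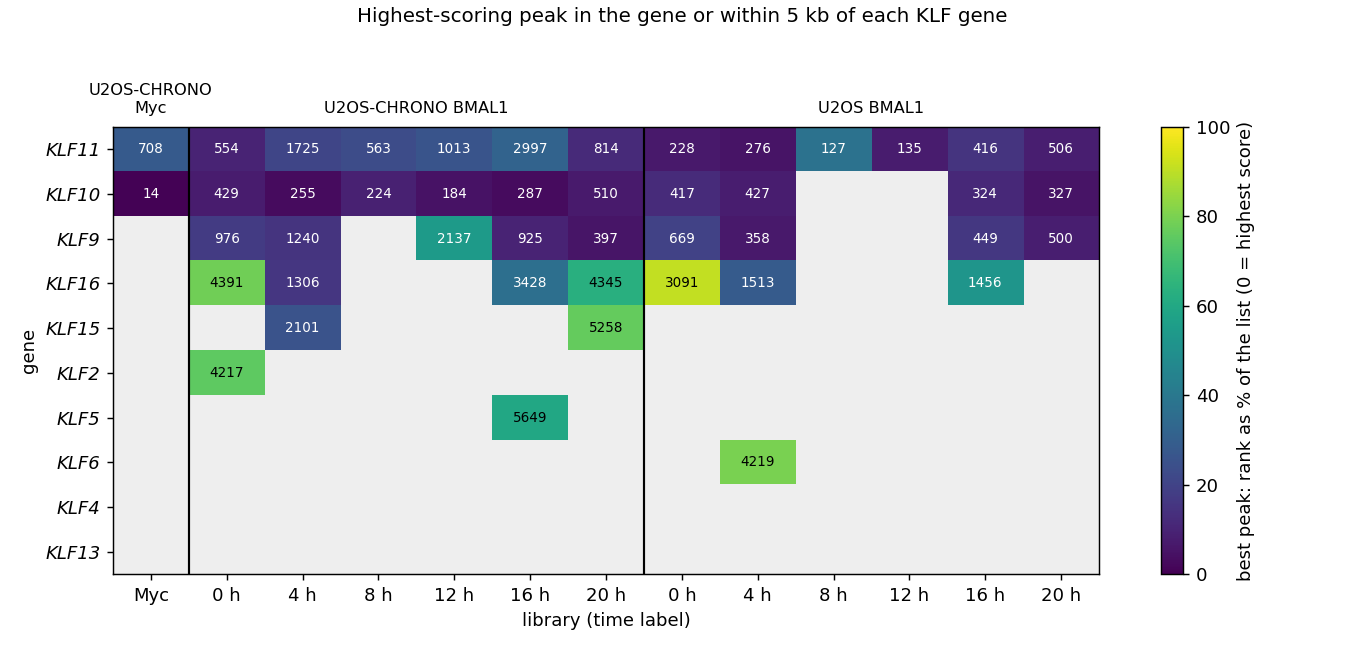
Rank of the highest-scoring peak at each KLF gene (rows) in each library (columns): the Myc library, then BMAL1 in U2OS-CHRONO and in U2OS by time label. Numbers are ranks in that list, colour is the rank as a percentage of the list (0 is the highest score), and light grey means no peak; KLF11 is filled in all 13 lists and KLF4 and KLF13 in none.

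KLF11, a SIN3A-recruiting repressor (RefSeq gene at chr2:10043550-10054836), was marked in every list by a site across its lower-coordinate end, chr2:10042859-10043705. The site overlaps the divergent transcript KLF11-DT, and its median centre lay 426 bp before the nearest start site in the promoter table. The centres of its highest peaks kept to a stretch from 10043317 to 10043438, an SD of 35.3 bp over the 12 BMAL1 libraries. In U2OS-CHRONO the site ranked 554 of 5612 peaks at 0 h, 1725 of 8240 at 4 h, 563 of 2429 at 8 h, 1013 of 3919 at 12 h, 2997 of 9391 at 16 h and 814 of 6873 at 20 h. In U2OS it ranked 228 of 3397, 276 of 5287, 127 of 337, 135 of 1808, 416 of 2794 and 506 of 6012 at the same times. That put it between the top 9.87% (0 h) and the top 31.9% (16 h) of the U2OS-CHRONO lists and between the top 5.22% (4 h) and the top 37.7% (8 h) of the U2OS lists. The scores behind these ranks were 235.27, 155.23, 104.22, 100.69, 103.79 and 181.97 in U2OS-CHRONO and 260.82, 304.67, 67.83, 176.94, 141.17 and 220.04 in U2OS. Whether scores of different lists share a scale is unknown, so they are not compared.

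A further KLF11 site lay inside the gene, at chr2:10043718-10044454. The site spans both KLF11 start sites of the promoter table, with its median centre 113 bp before the inner one. It had a peak at 0, 4, 16 and 20 h in U2OS-CHRONO and at 4, 16 and 20 h in U2OS, and in neither line at 8 or 12 h, the times of the shortest lists. Its peaks stood between 35.1% and 62.3% down the U2OS-CHRONO lists and between 26.7% and 42% down the U2OS lists, lower than the main site in each of these 7 libraries. A weak peak 4407 bp outside the gene appeared only at 16 h in U2OS-CHRONO, the longest list.

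KLF10, a repressor first known as a TGF-beta early response gene (RefSeq gene at chr8:102648784-102655725), had its main site inside the gene, at chr8:102653275-102654366, with the median centre 1789 bp from the higher-coordinate gene end. U2OS-CHRONO had a peak there at 6 of 6 times, and U2OS at 0, 4, 16 and 20 h. The ranks in U2OS-CHRONO were 429 of 5612 at 0 h, 255 of 8240 at 4 h, 224 of 2429 at 8 h, 184 of 3919 at 12 h, 287 of 9391 at 16 h and 510 of 6873 at 20 h. Those in U2OS were 417 of 3397 at 0 h, 427 of 5287 at 4 h, 324 of 2794 at 16 h and 327 of 6012 at 20 h. The site was thus within the top 9.22% of each U2OS-CHRONO list and the top 12.3% of the U2OS lists that held it. The U2OS lists of 8 and 12 h, without it, were the shortest of all. The scores were 274.73, 513.64, 183.93, 262.58, 415.43 and 241.2 in U2OS-CHRONO, and 174.41, 237.92, 163.43 and 274.57 at 0, 4, 16 and 20 h in U2OS. Within each list these scores put KLF10 well above the threshold, since the lowest deposited score is 50.

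KLF10 had a second site across its higher-coordinate end, at chr8:102655543-102656270, which overlaps the uncharacterised gene LOC101927245. It was present at 0, 4, 16 and 20 h in U2OS-CHRONO and at 4 and 20 h in U2OS. The ranks were 1507 of 5612, 1269 of 8240, 2559 of 9391 and 866 of 6873 in U2OS-CHRONO, and were 1297 of 5287 and 2860 of 6012 in U2OS. In each of these 6 libraries the inner site outranked the site at the gene end. A lone peak farther inside the gene appeared at 0 h in U2OS, at rank 2537 of 3397.

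KLF9, a glucocorticoid-induced member (RefSeq gene at chr9:70384604-70414657, minus strand), had 2 recurrent sites. The first, chr9:70413849-70414542, lay inside the gene, its median centre 535 bp downstream of the start site, and overlaps the divergent KLF9-DT. It had a peak at 0, 4, 16 and 20 h in both lines. In U2OS-CHRONO it ranked 2424 of 5612, 2428 of 8240, 1676 of 9391 and 2786 of 6873. In U2OS it ranked 669 of 3397, 1969 of 5287, 449 of 2794 and 500 of 6012. The second, chr9:70418145-70419689, lay upstream, centred 4299 bp before the start site. It had a peak at 0, 4, 12, 16 and 20 h in U2OS-CHRONO and at 0, 4 and 20 h in U2OS. The best ranks in U2OS-CHRONO were 976 of 5612, 1240 of 8240, 2137 of 3919, 925 of 9391 and 397 of 6873. Those in U2OS were 1347 of 3397, 358 of 5287 and 1464 of 6012. The upstream site ranked above the inner one at 4 of the 4 shared times in U2OS-CHRONO and at 1 of 3, the 4 h list, in U2OS. A lone weak peak farther inside the gene appeared at 16 h in U2OS-CHRONO, and neither line had a KLF9 peak at 8 h within 5 kb.

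The 5 kb limit cut through a cluster of peaks at KLF9. The nearest merged region outside it, chr9:70419704-70420465, began 5047 bp from the gene and 15 bp from the upstream site, and it had a BMAL1 peak at 0, 4, 12, 16 and 20 h in both lines. Its ranks in U2OS-CHRONO were 1696 of 5612, 637 of 8240, 1151 of 3919, 604 of 9391 and 1463 of 6873. Those in U2OS were 793 of 3397, 3098 of 5287, 426 of 1808, 220 of 2794 and 296 of 6012. The Myc list had a peak there as well, at rank 157 of 2487, while it had none at KLF9 inside the limit. With 10 kb on each side KLF9 was therefore marked at 5 times in each line and by Myc.

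**Figure D2:**
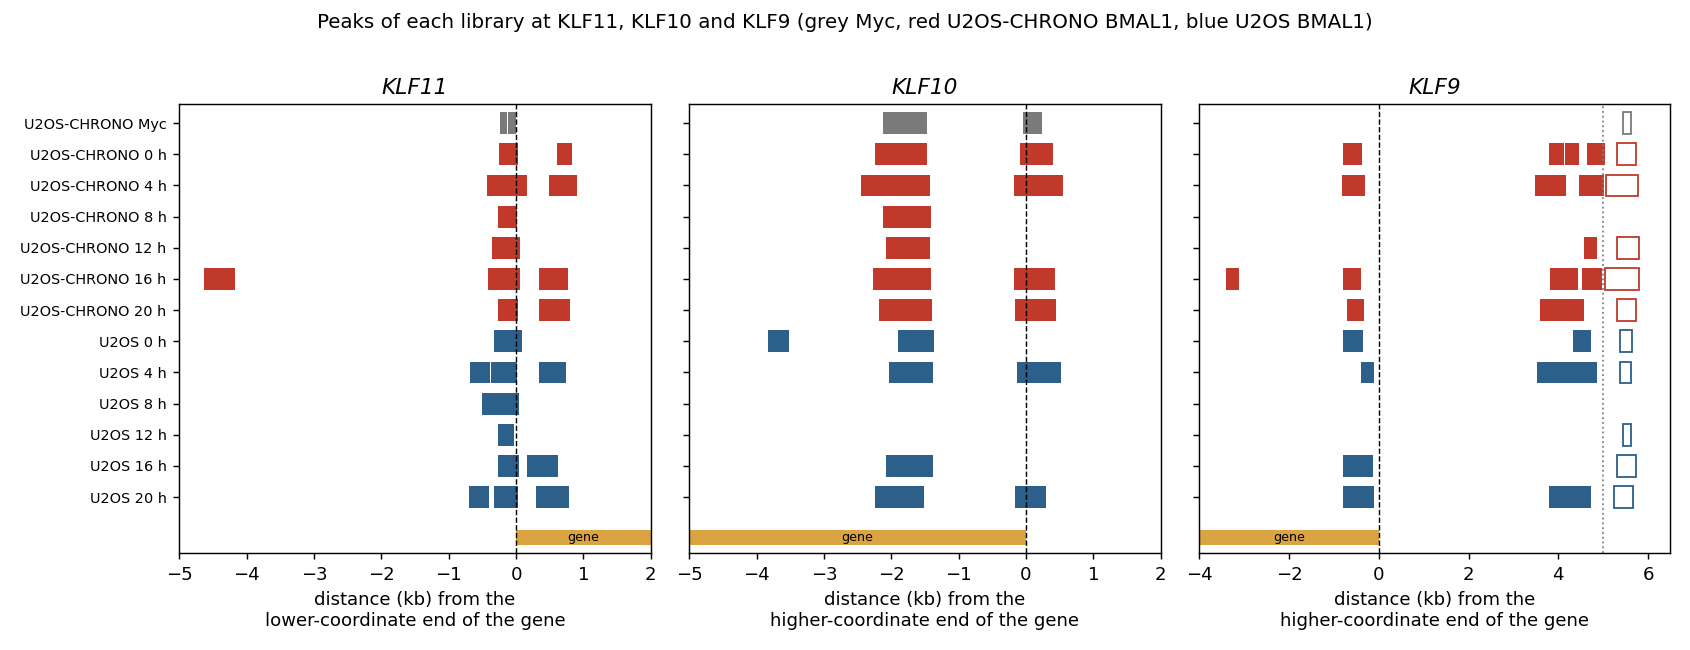
Peaks of each library (rows: Myc, then BMAL1 in U2OS-CHRONO and in U2OS by time) along KLF11, KLF10 and KLF9, as distance in kb from the gene end named on each axis, with the gene as the ochre bar. Filled bars are peaks assigned to the gene, and the open bars beyond the dotted line at KLF9 are the peaks just outside 5 kb, present at 5 times in each line.

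KLF16, another SIN3A-recruiting member (RefSeq gene at chr19:1852399-1876536), had 2 weaker sites. The inner one, chr19:1863868-1864656, had a peak at 0 and 4 h in U2OS-CHRONO, with ranks 4391 of 5612 and 1306 of 8240, and at 4 and 16 h in U2OS, with ranks 1513 of 5287 and 1456 of 2794. The other, chr19:1876117-1876380, lay 287 bp inside the higher-coordinate end, within 5 kb of ABHD17A as well. It had a peak at 0, 16 and 20 h in U2OS-CHRONO, with ranks 4590 of 5612, 3428 of 9391 and 4345 of 6873, and at 0 h in U2OS, with rank 3091 of 3397. Only the 0 h list of U2OS-CHRONO held both sites, so that a count by gene (4 times in U2OS-CHRONO and 3 in U2OS) joined different sites. Beyond the limit, 20972 bp from the gene, a region at chr19:1897508-1898082 had a peak in 11 BMAL1 libraries, 6 of U2OS-CHRONO and 5 of U2OS, and in the Myc list. KLF13, the remaining SIN3A-recruiting gene of those examined, had no peak, and its nearest one lay 1660 kb away, in 1 library.

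Of the activators, each gene with a peak had it in a single library and at a low rank. KLF2, which keeps endothelial cells and T cells quiescent, had one 1903 bp beyond the gene at 0 h in U2OS-CHRONO (rank 4217 of 5612). KLF5, which drives epithelial growth, had one inside the gene at 16 h in U2OS-CHRONO (rank 5649 of 9391). KLF6, a tumour suppressor, had one over its start site at 4 h in U2OS (rank 4219 of 5287), and this is the peak over the CACGTG shown above. KLF4, a pluripotency factor, had none, and its nearest merged region lay 58.6 kb away, in 1 U2OS library. KLF15, the metabolic member, had a site inside the gene at 4 h (rank 2101 of 8240) and 20 h (rank 5258 of 6873) and a peak over its start site at 20 h (rank 6132 of 6873), all in U2OS-CHRONO and none in U2OS.

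Over the day, the number of KLF genes with a peak was lowest where the lists were shortest. U2OS-CHRONO had 5, 5, 2, 3, 5 and 5 of the 10 genes at 0, 4, 8, 12, 16 and 20 h, where 18.4%, 23.1%, 7.96%, 11.5%, 24.7% and 19.3% of all protein-coding genes had a peak. U2OS had 4, 5, 1, 1, 4 and 3, where 11.2%, 15.7%, 1.3%, 5.88%, 9.34% and 16.2% did. U2OS-CHRONO was lowest at 8 h and next lowest at 12 h, U2OS was lowest at both, and the share over all genes was lowest at the same times. The U2OS list of 20 h had fewer KLF genes than that of 16 h although it was longer. With 1 library per time there is no test of time, and list length moved with the KLF counts.

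**Figure D3:**
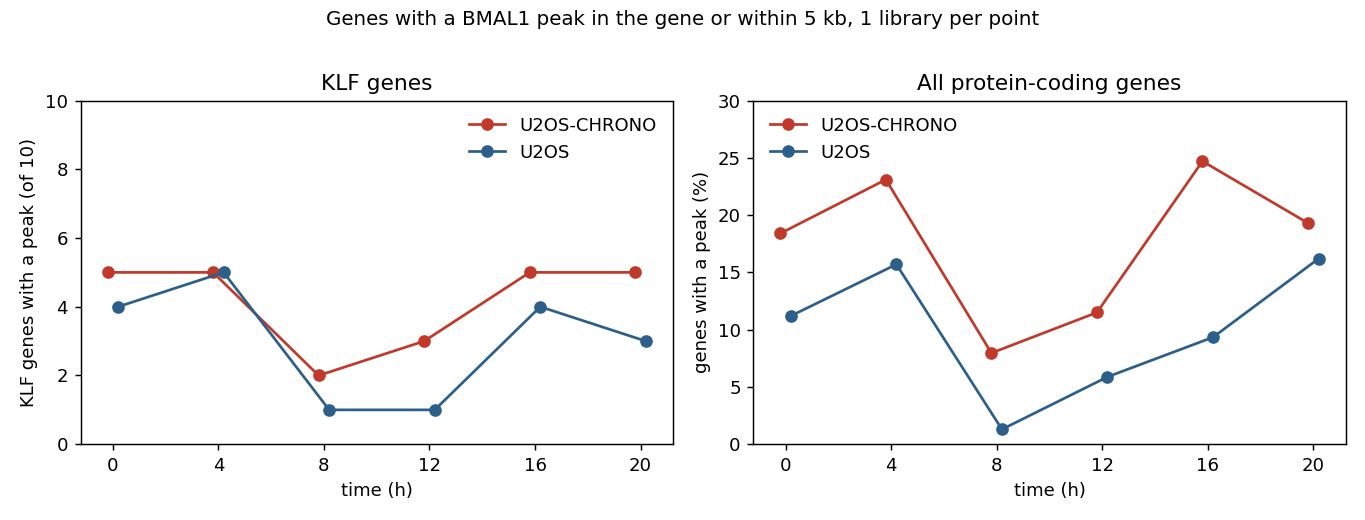
Number of the 10 KLF genes with a BMAL1 peak (left) and percentage of all protein-coding genes with one (right) by time label, 1 library per point, with points set slightly apart. The KLF count lies between 2 and 5 in U2OS-CHRONO and between 1 and 5 in U2OS, lowest at 8 h in both panels.

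To compare times and lines at one list length, every list was cut to its 337 highest-scoring peaks, a choice made after the data were seen. KLF10 and KLF11 were then the KLF genes left, at most 1 per list, where each BMAL1 list marked 1.25% to 1.51% of all protein-coding genes. KLF10 stayed in the U2OS-CHRONO lists of 4, 8, 12 and 16 h and the U2OS lists of 16 and 20 h. KLF11 stayed in none of the 6 U2OS-CHRONO lists and in the U2OS lists of 0, 4, 8 and 12 h. With lists of 1808 peaks and U2OS at 8 h left out, KLF9 was kept at 0, 4, 16 and 20 h in both lines, KLF10 at 6 U2OS-CHRONO and 4 U2OS times, KLF11 at 5 U2OS-CHRONO and 5 U2OS times, and KLF16 at 1 U2OS-CHRONO and 2 U2OS times. These lists had 2 to 4 KLF genes in U2OS-CHRONO and 1 to 4 in U2OS, and each marked 5.88% to 7.16% of all protein-coding genes. KLF10 at 8 and 12 h in U2OS-CHRONO was thus among the highest peaks of those lists, whereas KLF9 was in no list of 8 or 12 h at that length.

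The comparison of the lines asked whether the CHRONO line gained or lost BMAL1 peaks at these genes. Summed over genes and times, U2OS-CHRONO had a peak in 25 of 60 cases (41.7%) and U2OS in 18 (30%), while over all protein-coding genes the shares were 17.5% in U2OS-CHRONO and 9.93% in U2OS. Of the 8 KLF genes with a BMAL1 peak, the number of times was larger in U2OS-CHRONO at 6, equal at KLF11 and smaller at KLF6. KLF4 and KLF13 had no peak in either line. Among the 8304 genes with a BMAL1 peak, 69.1% had more times in U2OS-CHRONO and 17.8% fewer, so the direction at the KLF genes was that of the whole table. KLF10 and KLF15 differed by 2 times, KLF2, KLF5, KLF9 and KLF16 by 1, and KLF11 by none. In an exact sign-flip test over the 6 paired times, two-sided, no KLF gene passed, the smallest p being 0.5 and each adjusted p being 1. No gene of the 8304 did after Benjamini-Hochberg adjustment (0%), and 34, or 0.409%, had an unadjusted p under 0.05, with 0.0312 as the smallest that 6 pairs allow. When the longer list at each time was cut to the length of the shorter, the KLF sums were equal, 18 cases in U2OS-CHRONO and 18 in U2OS, and the shares over all genes were 10.6% in U2OS-CHRONO and 9.93% in U2OS. At those lengths the difference, U2OS-CHRONO minus U2OS, was 2 times at KLF10 and KLF15, -2 at KLF11, -1 at KLF6 and KLF16 and 0 at the others, and none of the KLF genes passed the test.

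Ranks can be compared between lists only within a set of regions that all of them hold. The KLF11 site was 1 of 167 merged regions with a peak in all 12 BMAL1 libraries. The U2OS list of 8 h, with 337 peaks, limits this set. Its peaks were also wide, with a median of 743 bp against 208 to 396 bp in the other BMAL1 lists. Within the 167 regions the KLF11 site ranked 142, 164, 131, 153, 166 and 151 at 0 to 20 h in U2OS-CHRONO, against 123, 141, 109, 97, 152 and 151 in U2OS. It stood below the middle of the set in all 12 libraries, lower in U2OS-CHRONO at 5 of 6 times and level at 20 h. The mean rank was 151.2 ± 13.3 in U2OS-CHRONO and 128.8 ± 22.9 in U2OS (SD, n = 6 times). The difference of 22.3 ± 18.5 places did not pass (p = 0.0625 in the exact sign-flip test, 0.119 after adjustment over the 167 regions). With the tie at 20 h this test could not give KLF11 a smaller p, so it could not pass. None of the 167 regions passed (0%) and the smallest adjusted p was 0.0815, though 64 of them (38.3%) had an unadjusted p under 0.05. A lower standing in U2OS-CHRONO at 6 of 6 times was seen in 19.2% of the set. KLF11, level at 20 h, was not among these, and the share lower at 5 of 6 times was not counted.

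A larger set, chosen after the data were seen, held the 985 regions with a peak in all 8 BMAL1 libraries of 0, 4, 16 and 20 h. It included the inner site of KLF9 and the main sites of KLF10 and KLF11. KLF11 ranked 450, 810, 906 and 557 in U2OS-CHRONO, against 216, 265, 369 and 428 in U2OS. The inner KLF9 site ranked 892.5, 901.5, 795 and 883.5 in U2OS-CHRONO, against 539, 882, 393 and 425.5 in U2OS. The KLF11 site and the inner KLF9 site thus stood lower in U2OS-CHRONO at 4 of 4 times, as did 19.7% of the set. The upstream KLF9 site, without a U2OS peak at 16 h, was not in the set. Its best peaks stood 17.4%, 15% and 5.78% down the U2OS-CHRONO lists of 0, 4 and 20 h. In U2OS they stood 39.7%, 6.77% and 24.4% down, and these lists differ in length. KLF10 ranked 370, 237, 256 and 416 in U2OS-CHRONO, against 377, 394, 297 and 300.5 in U2OS, lower in U2OS-CHRONO only at 20 h. The mean differences were 361.2 ± 212 places for KLF11, 308.2 ± 197 for the inner KLF9 site and -22.4 ± 112 for KLF10 (U2OS-CHRONO minus U2OS, SD, n = 4 times). With 4 pairs the exact paired permutation p cannot go below 0.125, which KLF11 and KLF9 reached (adjusted p = 0.306), and KLF10 had p = 0.625. Whether the sites differ from each other in this respect was not tested.

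**Figure D4:**
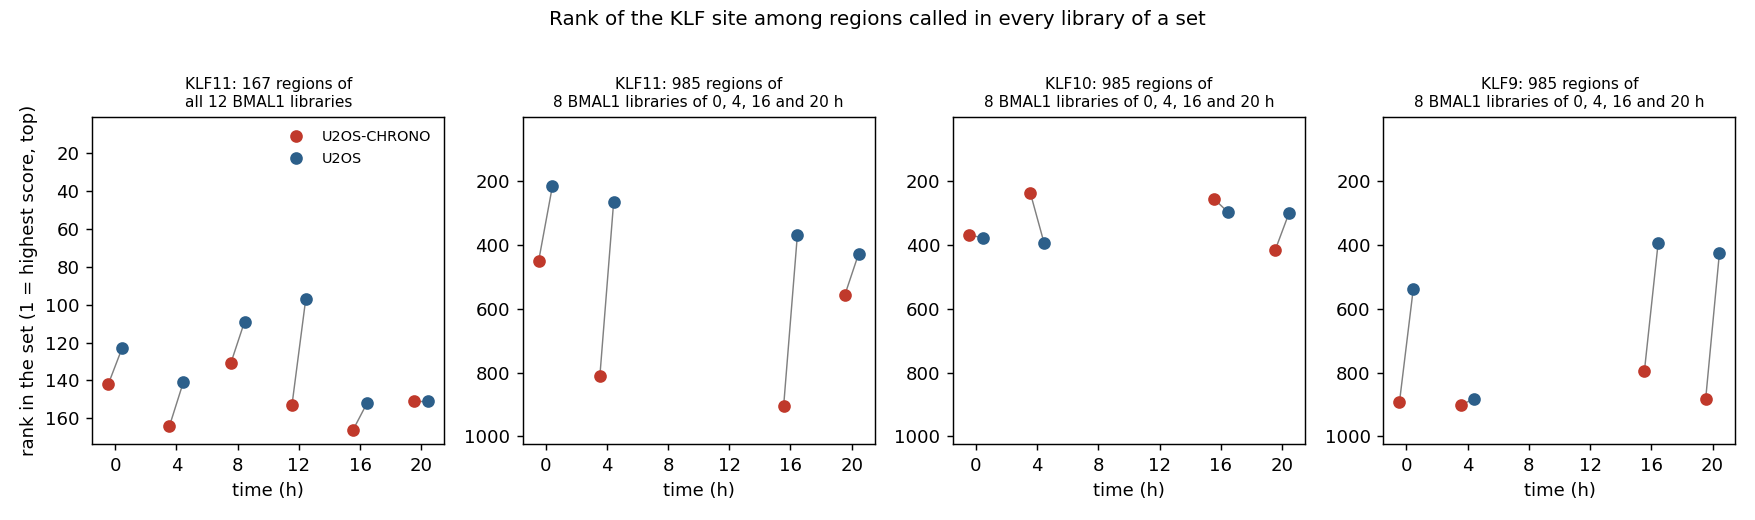
Rank of a KLF site among regions with a peak in every library of a set, by time label, with 1 at the top as the highest score, U2OS-CHRONO in red and U2OS in blue, joined within a time. KLF11 (of 167 and of 985 regions) and the inner KLF9 site (of 985) lie lower in U2OS-CHRONO. The exception is the tie of KLF11 at 20 h in the smaller set. KLF10 lies between 237 and 416 in U2OS-CHRONO and between 297 and 394 in U2OS.

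The Myc library asked where the Myc antibody, its target named as Myc-CHRONO, had peaks at these genes. The series held no Myc library from U2OS, so whether these peaks mark CHRONO was not tested. KLF10 and KLF11 had a Myc peak, 2 of the 10 genes, against 9.79% of all protein-coding genes. The strongest lay over the inner KLF10 site, at chr8:102653598-102654258, and ranked 14 of 2487, the top 0.563% of the list. It overlapped the BMAL1 peak of 6 U2OS-CHRONO and 4 U2OS times. The KLF10 gene end had a weak Myc peak, at rank 2342 of 2487. KLF11 had 2 small Myc peaks within its BMAL1 site, at chr2:10043307-10043420 and chr2:10043430-10043556, at ranks 708 and 1870, each overlapped by BMAL1 at 6 times in each line. All 4 Myc peaks at KLF genes, 2 of them within the same KLF11 site, overlapped BMAL1 in both lines. Of all Myc peaks 52.5% overlapped a U2OS-CHRONO BMAL1 peak and 42.2% a U2OS one. The 4 peaks came from 2 genes with BMAL1 peaks in 10 and 12 libraries, so no contrast is drawn.

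Among the 486 regions with a peak in the Myc library and in all 6 U2OS-CHRONO BMAL1 libraries, the inner KLF10 site ranked 13 by Myc. By BMAL1 it ranked between 134 and 288, with a median of 184. The KLF11 site ranked 284 by Myc and between 296 and 475 by BMAL1, with a median of 370.5. Both stood higher by Myc than at each BMAL1 time, as did 31.5% of the set. With 1 Myc library this is a description with no test.

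Peaks were also counted at the rest of the family and at the related SP genes. Of 8 other KLF genes, 4 had a BMAL1 peak and none a Myc peak, where 41.5% and 9.79% of all protein-coding genes did. KLF3, a CtBP-recruiting repressor, had a site across its lower-coordinate end, chr4:38663760-38664298, at 6 U2OS-CHRONO and 3 U2OS times (exact sign-flip p = 0.25, 1 after adjustment), overlapping KLF3-AS1. KLF17 had a peak at 3 U2OS-CHRONO and 0 U2OS times, KLF7 at 2 U2OS-CHRONO and 0 U2OS times, and KLF1, through peaks over the neighbouring GCDH, at 2 U2OS-CHRONO and 3 U2OS times. Of 9 SP genes, which encode GC-box binders of the same superfamily, 6 had a BMAL1 peak: SP4 at 3 U2OS-CHRONO times, SP3 and SP6 at 1 time in each line, SP7 at 1 U2OS-CHRONO time (a peak over the neighbouring AAAS), and SP1 and SP9 at 1 U2OS time. SP1 and SP7 also had a Myc peak, neither over a BMAL1 peak. Summed over genes and times, the other KLF genes had a peak in 13 of 48 cases in U2OS-CHRONO and 6 in U2OS, and the SP genes in 6 of 54 in U2OS-CHRONO and 4 in U2OS. As shares these were 27.1% in U2OS-CHRONO and 12.5% in U2OS for the other KLF genes, and 11.1% in U2OS-CHRONO and 7.41% in U2OS for the SP genes, against 17.5% in U2OS-CHRONO and 9.93% in U2OS over all protein-coding genes.

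Other genes had the same presence pattern over the 12 BMAL1 libraries as the recurrent KLF genes. By the smallest mean difference in position within the lists, the nearest to KLF10 were GYG1, IGSF8 and FBXO32 (2.16, 2.53 and 2.54 percentage points), out of 168 genes with an equal pattern. The nearest to KLF11 were MTHFD1L, SYN3 and WBP2 (5.13, 6.43 and 6.54 points) of 160, and to KLF9 XPO1, LOC124904276 and RBM15 (4.58, 6.24 and 6.24 points, the last pair with equal values) of 63.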

How the data were processed

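Each of 13 libraries had 1 deposited peak list in BED form. Tools listed in the submitters' processing notes are bedtools, HOMER 4.10.3 and MACS 1.4.2, with the build hg38 and no roles. The sources used here give no aligner, control or read depth. Column 5 is the authors' score of each peak as deposited, its definition not stated and its lowest value 50. It was used only to rank and filter peaks within a list. Starts were read as 0-based BED and are printed 1-based.

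Genes and promoter sequences came from RefSeq (GRCh38.p14). A gene was marked in a library when a peak shared at least 1 bp with the gene or 5 kb on either side. No 2 lists were identical. Lines were paired by time label, and two-sided exact sign-flip permutation tests were adjusted (Benjamini-Hochberg) over all 8304 genes with a BMAL1 peak, or over all regions of a set. These p-values measure the spread over times, which are not replicates. Overlapping BMAL1 peaks were merged into regions, each taking its highest score per library.

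Named were all 10 genes, other KLF and SP genes with a peak, and the 3 genes closest in pattern to a KLF gene marked in 8 or more BMAL1 libraries. The members and lists were chosen with earlier results of these data known. Alternatives were a score of at least 100, windows of 0, 10 and 50 kb, peak centres, equal list sizes, 50% overlap, other region sets, no pairing and each time left out. Tests were checked on simulated data. Python 3.11.15, NumPy 2.4.6, pandas 2.3.3, SciPy 1.17.1 and matplotlib 3.10.9 were used.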

Additional observations from a re-analysis of the deposited data

How the results depend on the processing

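The paired tests had little room to pass: 6 pairs allow a p of 0.0312 at the smallest, and 5 pairs, with 1 time left out, allow 0.0625, so no gene could pass with 5. The count of 0 genes past an adjusted p of 0.05 in the paired tests therefore says nothing of stability. Without pairing the count was 0 as well, but that test had little room too. Its smallest p is reached only by a gene with a peak at all 6 times in 1 line and at none in the other. Only 34 of the 8304 genes had that pattern, so this count says nothing of stability either. With equal list sizes the KLF16 difference (U2OS-CHRONO minus U2OS) was -1 time in place of 1 and that of KLF11 -2 in place of 0. With 337 peaks that of KLF11 was -4 (exact sign-flip p = 0.125, adjusted p = 0.851, the lowest adjusted p of a KLF gene under 14 alternatives). A score of at least 100 left 5 KLF genes with a BMAL1 peak in place of 8, and 1 with a Myc peak in place of 2. With 50 kb on each side 4 KLF genes had a Myc peak. With every list cut to 337 peaks, 2 KLF genes had a BMAL1 peak and 1 a Myc peak, and the summed gene-by-time cases were 4 in U2OS-CHRONO and 6 in U2OS, against 25 in U2OS-CHRONO and 18 in U2OS with whole lists. With 1808 peaks and U2OS at 8 h left out, there were 4 genes and 16 of 60 cases in U2OS-CHRONO, and 15 of 50 in U2OS. In neither cut was the share of cases larger in U2OS-CHRONO, unlike with whole lists. Both cuts were added after the data were seen. Leaving out each time in turn gave 7 to 8 KLF genes, 20 to 23 cases in U2OS-CHRONO and 13 to 17 in U2OS, and a mean KLF11 rank difference of 15.6 to 26.8 places. Gene body alone, 10 kb and peak centres kept the counts of KLF genes within 1.5 times. The KLF11 rank difference kept its direction under all alternatives. It could not pass with a time left out, without 8 h (5 pairs) or at 4 times (4 pairs, smallest p 0.125). Nor could it with all 6 pairs, since the tie at 20 h leaves 0.0625 as the smallest p. It was 22.33 places with 50% overlap (adjusted p = 0.119) and without the pairing by time (exact permutation, adjusted p = 0.13), 228.2 of 614 regions without 8 h (adjusted p = 0.17) and 361.2 of 985 regions at 0, 4, 16 and 20 h (adjusted p = 0.306). Sets of different sizes have different spans of rank. Peak lists without read depth cannot tell less binding from a peak under the caller's threshold.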
